A study of Homo sapiens with 4 samples.

Results

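The genes described here encode enzymes that write or erase marks on histones and DNA, ATP-driven nucleosome remodelers and bromodomain readers. They were chosen by symbol: names that start with KDM, KMT, HDAC, SIRT, SETD, PRMT, SMARC, EZH or DNMT3, or with KAT, CHD, BRD or TET followed by a number, without pseudogenes. Of 108 such genes with a probe among the authors' normalized values, 86 had a probe with a detection p-value under 0.01 on 2 or more arrays, out of 10673 named genes and 13786 features (named genes plus unnamed probes) that passed the same limit. They fell into 22 activating enzymes, 22 repressive enzymes, 21 remodeler subunits, 4 readers, 1 DNA methyltransferase and 14 enzymes with mainly other substrates, and 2 genes were not classed. The unclassed genes are BRD10 and BRD3OS, and BRD3OS is taken by its symbol although it lies opposite BRD3 and is no bromodomain gene. The Y-linked member KDM5D enters counts and medians only.

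Total RNA came from cultured human prostate cancer cells, named DU154 in the labels. In 2 samples, mH2A1.2_KO, the histone variant macroH2A1.2, a splice form of macroH2A1, had been depleted, and 2 wild type samples of the same line served as controls. The method of depletion, and whether the cells were 1 clone, are not stated in the labels. The replicates are not described as separate cultures, so the p-values may reflect technical spread alone.

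Each of the samples was read on a single-colour Illumina bead array, all on 1 slide, and values are normalized signals on the log2 scale. A difference of 1 on that scale is a 2-fold change, and every difference below is mH2A1.2_KO minus wild type. Between 35.4% and 38.9% of probes were detected per array. The deposited tables disagree on 2 arrays: the array named mH2A1.2_KO replicate 1 among the normalized values is headed wild type replicate 2 among the raw ones, and the other way round. Names follow the normalized values. MACROH2A1, the gene of the depleted variant, measured 11.97 and 11.83 on its brightest probe in mH2A1.2_KO and 13.02 and 12.91 in wild type, a difference of -1.07 ± 0.16 (SE, 2 arrays per group). This gene did not pass the limma test used below (adjusted p = 0.251), and its other detected probes measured -1.02 and 0.62. Which splice forms these probes read was not analysed here. Epithelial markers (KRT8, KRT18, KRT19, EPCAM and CDH1) were detected on all 4 arrays, with KRT8 at 11.69 and 11.41 in mH2A1.2_KO and 9.99 and 9.75 in wild type, and the part of such shifts in the results below was not tested. On no array were PTPRC, PECAM1, CDH5 and DCN, markers of leukocytes, endothelium and fibroblasts, detected. A further fibroblast marker, COL1A1, was detected on mH2A1.2_KO replicate 1 (6.77) and wild type replicate 1 (6.69), and the neuroendocrine marker SYP on mH2A1.2_KO replicate 1 (6.99). CHGA, the other neuroendocrine marker examined, was not detected on any array. KLK3, a luminal prostate gene, was not detected on any array.

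Chromatin state is set by opposing enzymes. Acetyltransferases (KAT) and methyltransferases of H3K4 and H3K36 mark transcribed genes, and demethylases of H3K9 and H3K27 remove repressive methyl groups. Deacetylases (HDAC and the nuclear sirtuins), methyltransferases of H3K9, H3K27 and H4K20, and demethylases of H3K4 and H3K36 work in the other direction. CHD proteins and the SMARC ATPases use ATP, most of them to move or evict nucleosomes. Other SMARC proteins are remodeler subunits without ATPase activity, and bromodomain proteins bind acetylated histones. MacroH2A is a histone variant associated with repressed chromatin, and the comparison asks whether transcripts of this machinery differ when macroH2A1.2 is depleted.

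None of the 86 genes differed between mH2A1.2_KO and wild type past the test over all features. On the normalized signals as scaled here, their measured differences ran from -0.49 (CHD7) to 0.40 (SMARCC2). In mH2A1.2_KO 36 members measured higher and 50 (58.1%) lower, where 52% of all features lay below 0, with a median difference of -0.08, beside a median of -0.01 over all features. limma called 0 of 86 members and 0 of 13786 features (0% called), and the lowest adjusted p of a member was 0.58 (CHD7). At an unadjusted p under 0.05 there were 2 members, CHD7 lower and SMARCA2 higher, where 7.73% of all features lay under that limit, 3.35% lower and 4.37% higher.

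The 95% interval lay within a 2-fold change either way for each of the 86 members and within a 1.5-fold change for 40 of them. The lowest bound of any member was -0.96 (SETD9) and the highest 0.88 (KDM3A). The half-width of the interval ranged from 0.37 to 0.64. These intervals hold for the normalized signals as scaled here: EZH1 was below detection in mH2A1.2_KO, so its interval sets no limit on how much lower it was, and probes near background differed more with neqc, another background correction of the raw signals.

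**Figure D1:**
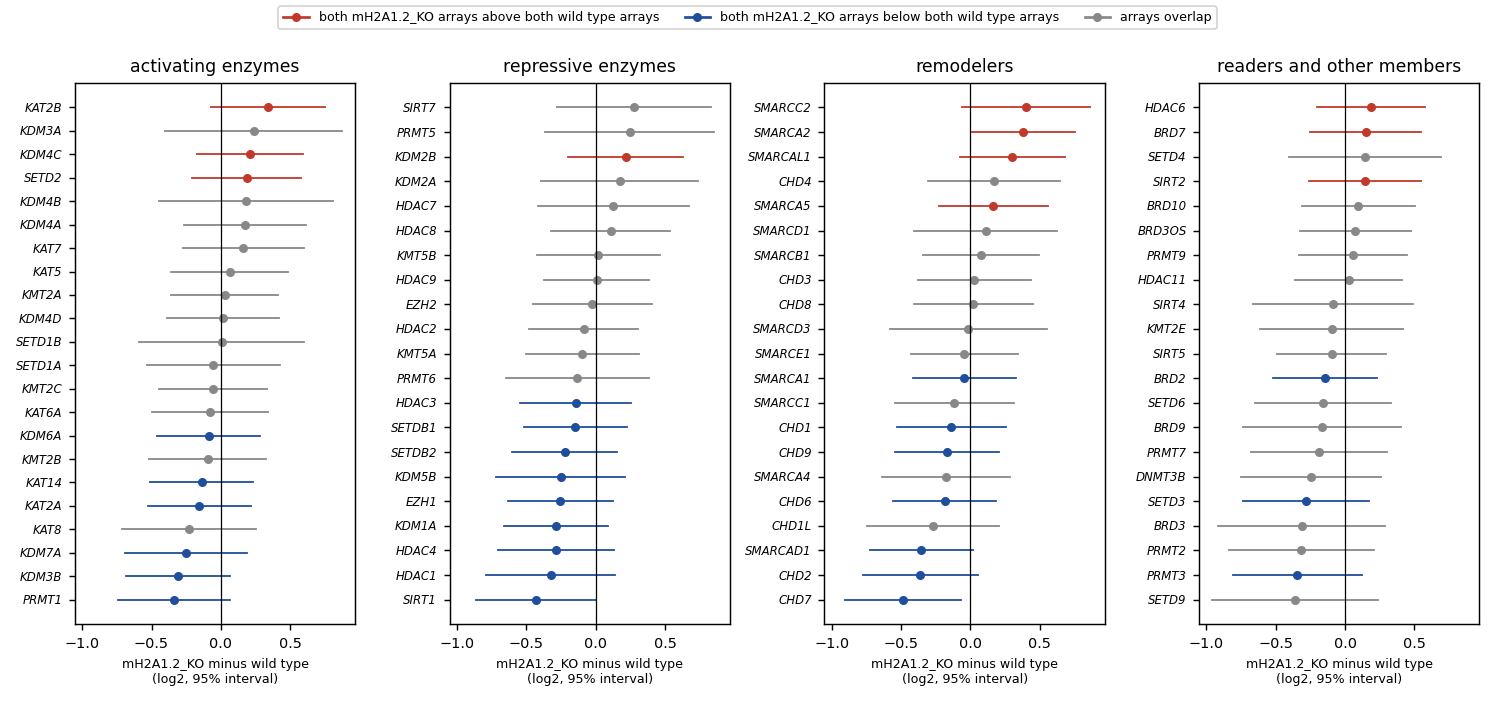
Difference in log2 signal (mH2A1.2_KO minus wild type, points) with its 95% interval from the limma fit (lines) for 85 members in 4 panels by role, coloured by whether both mH2A1.2_KO arrays lay above both wild type arrays, below them, or overlapped. The points run from -0.49 (CHD7) to 0.40 (SMARCC2), and the intervals of CHD7 and SMARCA2 alone leave out 0.

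Arrays of the 2 groups did not overlap for 37 of 86 members (43%), 26 lower and 11 higher in mH2A1.2_KO. Over all features they did not for 35.8%, with 18.7% lower and 17.1% higher. As a description with no test, the share among members lay above the background for lower genes and below it for higher ones. The 26 lower include EZH1, which passed the detection limit through wild type alone. When the array of mH2A1.2_KO replicate 1 was left out the median of the members was -0.015, and without wild type replicate 2 it was -0.022.

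Among enzymes that place activating marks or remove repressive ones, 11 of 22 measured higher and 11 lower in mH2A1.2_KO, with a median difference of -0.02. Arrays did not overlap for 3 higher and 6 lower, 40.9% of the class beside 35.8% of all features. KAT2B, the acetyltransferase PCAF, had the highest difference of this class. It measured 8.67 and 8.63 in mH2A1.2_KO and 8.18 and 8.45 in wild type, a difference of 0.34 ± 0.17 (adjusted p = 0.741). Both mH2A1.2_KO arrays lay above both wild type arrays. Its close relative KAT2A, or GCN5, a catalytic subunit of SAGA, gave 10.02 and 10.03 in mH2A1.2_KO against 10.20 and 10.17 in wild type, a difference of -0.16 ± 0.15. Of the 7 acetyltransferases measured, 3 were higher and 4 lower.

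PRMT1, the main enzyme of asymmetric arginine methylation, had the lowest difference among activating enzymes. It measured 10.02 and 10.01 in mH2A1.2_KO and 10.23 and 10.47 in wild type, a difference of -0.34 ± 0.17 (adjusted p = 0.737). The mH2A1.2_KO arrays were nearly equal and both lay below the wild type arrays. SETD2, the enzyme of H3K36 trimethylation, measured 9.06 and 9.02 in mH2A1.2_KO and 8.76 and 8.95 in wild type, a difference of 0.19 ± 0.16. The 5 H3K4 methyltransferases measured (KMT2A, KMT2B, KMT2C, SETD1A and SETD1B) had differences from -0.09 to 0.03 and overlapping arrays in all 5.

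Of the 7 H3K9 demethylases 5 measured higher and 2 lower, with a median of 0.17. Arrays did not overlap for 1 of the higher and 2 of the lower, beside 17.1% higher and 18.7% lower over all features. KDM3A, a hypoxia-induced H3K9 demethylase, measured 7.17 and 7.54 in mH2A1.2_KO and 6.79 and 7.44 in wild type, a difference of 0.24 ± 0.26. Its arrays overlapped, and the second replicate was the higher in each group. KDM3B, its paralog, gave 9.06 and 9.11 in mH2A1.2_KO against 9.35 and 9.43 in wild type, a difference of -0.31 ± 0.15 (adjusted p = 0.741), with no overlap. The 4 members of the KDM4 family, which act on H3K9 and H3K36, all measured higher, from 0.01 to 0.21. Among them the arrays overlapped for all but KDM4C. KDM4C had the highest, with 6.74 and 6.87 in mH2A1.2_KO and 6.62 and 6.57 in wild type, and was above background on 1 of the 2 wild type arrays. KDM4A differed by 0.17 ± 0.18, and KDM4B by 0.18 ± 0.26 with 7.39 on mH2A1.2_KO replicate 2 against 6.69 to 6.96 on the other arrays. These probes lie close to background, and with neqc KDM4C measured 0.40 and KDM3A 0.55.

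Repressive enzymes measured lower more often than higher in mH2A1.2_KO, 14 of 22 against 8, with a median difference of -0.09. Arrays did not overlap for 10 lower members and 1 higher, beside 18.7% lower and 17.1% higher over all features. The 10 lower include EZH1, which passed the detection limit through wild type alone. SIRT1, the nuclear NAD-dependent deacetylase, had the lowest difference of this class. It measured 8.22 and 8.39 in mH2A1.2_KO and 8.87 and 8.59 in wild type, a difference of -0.43 ± 0.18, or 1.35-fold lower (adjusted p = 0.651). Both mH2A1.2_KO arrays lay below both wild type arrays, and the difference ran from -0.57 to -0.29 when 1 array was left out. SIRT7, the nucleolar sirtuin, went the other way with 8.06 and 7.54 in mH2A1.2_KO against 7.37 and 7.67 in wild type, a difference of 0.28 ± 0.23. That value rested on mH2A1.2_KO replicate 1, and without it the difference was 0.02.

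Of 4 class I deacetylases, HDAC1, HDAC2 and HDAC3, catalytic subunits of corepressor complexes such as NuRD and NCoR, measured lower, and HDAC8, which acts outside these complexes, measured higher (0.11, arrays overlapping). HDAC1 gave 11.84 and 11.56 in mH2A1.2_KO against 12.17 and 11.87 in wild type, a difference of -0.32 ± 0.19 (adjusted p = 0.819). The arrays of each group did not overlap, but the higher mH2A1.2_KO array was only just below the lower wild type array. HDAC2 measured 10.84 and 10.91 in mH2A1.2_KO and 11.05 and 10.86 in wild type, a difference of -0.09 ± 0.16. HDAC3 differed by -0.14 ± 0.16. The class IIa enzyme HDAC4 differed by -0.29 ± 0.17 and was above background on 1 of the 2 mH2A1.2_KO arrays, so its size is uncertain, and with neqc it measured -0.58.

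Enzymes that remove methyl groups from H3K4 included KDM1A and KDM5B. Both were lower on each mH2A1.2_KO array than on either wild type array, as were 18.7% of all features. KDM1A, or LSD1, the catalytic partner of CoREST, measured 10.35 and 10.36 in mH2A1.2_KO and 10.68 and 10.59 in wild type, a difference of -0.28 ± 0.15 (adjusted p = 0.78). KDM5B gave 9.62 and 9.59 in mH2A1.2_KO against 10.06 and 9.65 in wild type, a difference of -0.25 ± 0.19, which was -0.05 without wild type replicate 1. The H3K36 demethylases KDM2A and KDM2B both measured higher. KDM2B gave 9.65 and 9.90 in mH2A1.2_KO and 9.51 and 9.60 in wild type, a difference of 0.22 ± 0.17.

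EZH2, the main H3K27 methyltransferase of Polycomb repressive complex PRC2, showed no detectable difference. It measured 8.51 and 8.81 in mH2A1.2_KO and 8.63 and 8.74 in wild type, a difference of -0.02 ± 0.18 with a 95% interval of -0.45 to 0.40, and its 3 probes ran from -0.06 to -0.01. EZH1, its paralog, was above background on both wild type arrays (6.86 and 6.85) but not well above background in mH2A1.2_KO (6.67 and 6.53). The measured means put it 1.19-fold lower in mH2A1.2_KO, where its own signals lay above the dimmest detected probe. That difference did not pass the test (-0.25 ± 0.16, 95% interval -0.63 to 0.13, adjusted p = 0.832). With neqc it measured -0.68, and it passed the detection limit through wild type alone. The H3K9 methyltransferases SETDB1 (-0.15 ± 0.15) and SETDB2 (-0.22) were both lower with no overlap, as were 18.7% of all features. H3K9 methyltransferases outside the symbol rule lay on both sides of 0: SUV39H1 measured 0.28, EHMT2 0.14 and EHMT1 -0.008, with overlapping arrays for all 3. PRMT5, the symmetric arginine methyltransferase, measured 9.99 and 10.05 in mH2A1.2_KO and 9.43 and 10.12 in wild type, a difference of 0.25 ± 0.25. Here wild type replicate 1 stood apart, and without it the difference was -0.10.

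**Figure D2:**
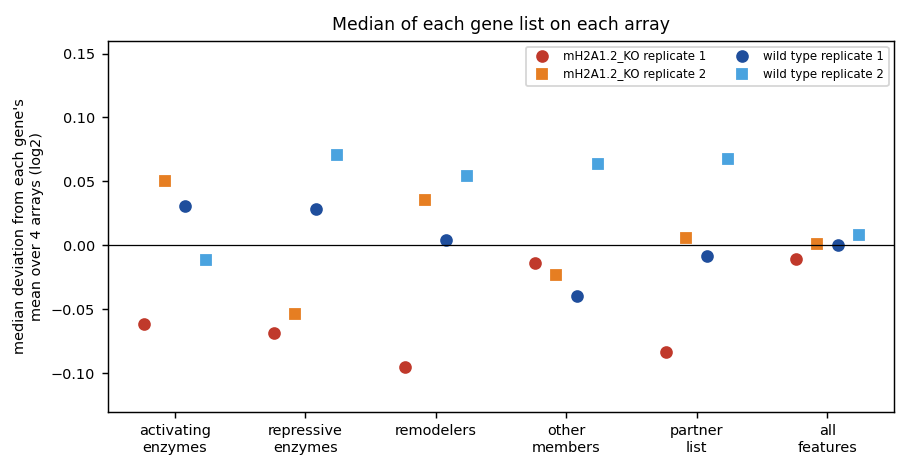
Median deviation of each gene list from the genes' own means over the 4 arrays (log2), 1 point per array, with mH2A1.2_KO arrays in red and orange and wild type arrays in blue. For repressive enzymes the mH2A1.2_KO points sit at -0.07 and -0.05 and the wild type points at 0.03 and 0.07, while the points of activating enzymes overlap.

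The comparison of the enzyme classes gave a small gap. The median difference was -0.02 for activating and -0.09 for repressive enzymes, a gap of 0.07. The 4 genes of the KDM4 family, which also acts on H3K36, were counted as activating for their H3K9 activity. All 4 measured higher, with a median of 0.18 and no overlap of arrays for 1, and the gap without them was not computed. As plotted in the medians by array, repressive enzymes lay at -0.07 and -0.05 in mH2A1.2_KO and at 0.03 and 0.07 in wild type, so those groups did not overlap. Activating enzymes lay at -0.06 and 0.05 in mH2A1.2_KO and at 0.03 and -0.01 in wild type, and those overlapped. The activating median minus the repressive median on the same array was 0.007 and 0.10 in mH2A1.2_KO and 0.002 and -0.08 in wild type. These averaged 0.055 in mH2A1.2_KO and -0.040 in wild type, a difference of 0.095 beside a pooled SD between replicates of 0.064 (2 arrays per group). The arrays did not overlap, but mH2A1.2_KO replicate 1 and wild type replicate 1 were nearly equal. When 1 array was left out the gap ran from 0.03 to 0.09, and among genes detected on all 4 arrays it was 0.01. No p is given, since the classes were chosen with results known, and 2 against 2 arrays could not go below 0.333 in an exact permutation test.

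Remodelers held both ends of the members' range. CHD7, a CHD remodeler that binds enhancers, measured 8.547 and 8.548 in mH2A1.2_KO and 8.89 and 9.18 in wild type. The mH2A1.2_KO arrays were nearly identical and both below wild type, a difference of -0.49 ± 0.17, or 1.40-fold lower (adjusted p = 0.58). CHD2 measured 6.89 and 6.73 in mH2A1.2_KO and 7.27 and 7.07 in wild type, a difference of -0.36 ± 0.17 that was -0.57 with neqc. Of 9 CHD members 6 were lower, 5 of them with no overlap, and 3 higher, where 18.7% of all features were lower with no overlap. Among the higher was CHD4, the ATPase of NuRD, with 9.69 and 9.97 in mH2A1.2_KO against 9.49 and 9.83 in wild type, a difference of 0.17 ± 0.20 in which the arrays overlapped. CHD6, counted among the 5 lower with no overlap, measured -0.19 on its brighter probe. Its second probe, detected on all 4 arrays, measured 0.21, with both mH2A1.2_KO arrays above both wild type arrays.

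SMARCA2 (BRM) and SMARCA4 (BRG1) are the alternative ATPases of SWI/SNF, and their transcripts measured on opposite sides of 0. SMARCA2 measured 8.40 and 8.45 in mH2A1.2_KO and 8.03 and 8.06 in wild type, a difference of 0.38 ± 0.15, or 1.30-fold higher (adjusted p = 0.633). Replicates lay close together in each group, and the difference ran from 0.35 to 0.41 when 1 array was left out. SMARCA4 measured 8.45 and 8.65 in mH2A1.2_KO and 8.56 and 8.90 in wild type, a difference of -0.18 ± 0.19 with overlapping arrays.

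The core subunits SMARCC2 (BAF170) and SMARCC1 (BAF155) gave a similar contrast. SMARCC2 measured 8.87 and 9.23 in mH2A1.2_KO and 8.72 and 8.57 in wild type, a difference of 0.40 ± 0.19 (adjusted p = 0.718), and its dimmer probe measured 0.10. SMARCC1 measured 10.01 and 10.20 in mH2A1.2_KO and 10.09 and 10.35 in wild type, a difference of -0.11 ± 0.18. Over the 10 SWI/SNF members, BRD7 and BRD9 included, 5 were higher and 5 lower, 3 of them higher with no overlap and 0 lower with no overlap, beside 17.1% and 18.7% of all features.

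**Figure D3:**
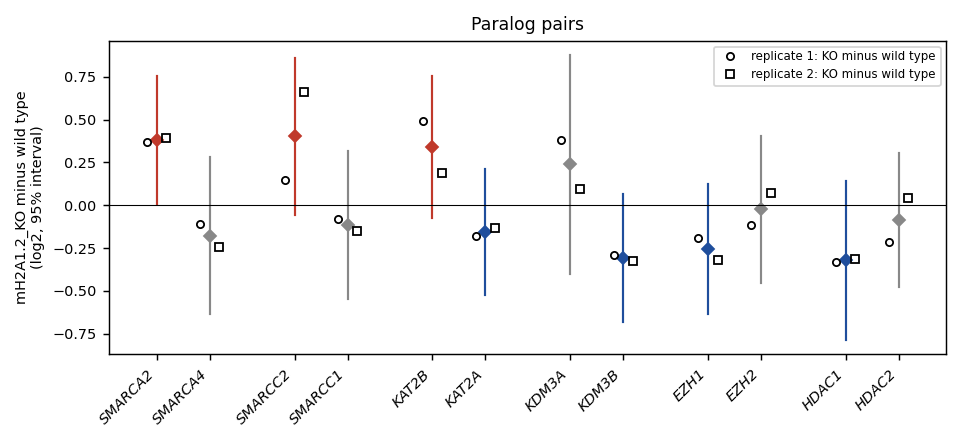
Difference in log2 signal (mH2A1.2_KO minus wild type) for 6 paralog pairs: diamonds and lines give the limma estimate and its 95% interval, and open symbols the difference between same-numbered arrays (red, both mH2A1.2_KO arrays above both wild type arrays; blue, below; grey, overlapping). In SMARCA2 and SMARCA4, SMARCC2 and SMARCC1, KAT2B and KAT2A, and KDM3A and KDM3B the first gene lies above 0 and the second below it for both replicate numbers.

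These pairs were picked after their values were seen and are a description. The first gene's difference exceeded the second's by 0.56 for SMARCA2 and SMARCA4, by 0.52 for SMARCC2 and SMARCC1, by 0.49 for KAT2B and KAT2A and by 0.55 for KDM3A and KDM3B. Between same-numbered arrays that excess was 0.48 and 0.64 for the SWI/SNF ATPases, 0.23 and 0.81 for SMARCC2 and SMARCC1, 0.67 and 0.32 for KAT2B and KAT2A and 0.67 and 0.42 for KDM3A and KDM3B. The labels do not pair same-numbered arrays. With the arrays paired the other way the excess was, in the same order, 0.78 and 0.33, 0.63 and 0.40, 0.37 and 0.62, and 0.10 and 0.99. None of the genes in these pairs passed the test.

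Other ATPases measured on both sides of 0. SMARCAL1, which remodels stalled replication forks, measured 8.96 and 8.90 in mH2A1.2_KO and 8.57 and 8.68 in wild type, a difference of 0.30 ± 0.16 (adjusted p = 0.756). SMARCAD1, a remodeler of newly replicated heterochromatin, gave 7.84 and 7.91 in mH2A1.2_KO against 8.23 and 8.23 in wild type, a difference of -0.35 ± 0.15 (adjusted p = 0.671). Arrays overlapped for neither gene. SMARCA5, the ISWI ATPase SNF2H, differed by 0.16 ± 0.16, and its dimmer probe by 0.07.

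The promoters of members at the ends of the range are shown because these genes lie at opposite ends with no overlap of arrays. SMARCC2 had no entry in the promoter table, and CHD7 is named only. Sequences are RefSeq, GRCh38.p14, from 250 bases before to 50 bases after the annotated start, 5′ to 3′ on the gene's strand, all plus. SMARCA2 (chr9:2015097-2015396) and KAT2B (chr3:20040196-20040495) measured higher, and SIRT1 (chr10:67884406-67884705) and CHD2 (chr15:92900074-92900373) lower in mH2A1.2_KO. Capitals mark GC boxes (GGGCGG, either strand), the letters of the Sp1 site, and no CCAAT box (CCAAT, either strand) was found in these windows.
SMARCA2: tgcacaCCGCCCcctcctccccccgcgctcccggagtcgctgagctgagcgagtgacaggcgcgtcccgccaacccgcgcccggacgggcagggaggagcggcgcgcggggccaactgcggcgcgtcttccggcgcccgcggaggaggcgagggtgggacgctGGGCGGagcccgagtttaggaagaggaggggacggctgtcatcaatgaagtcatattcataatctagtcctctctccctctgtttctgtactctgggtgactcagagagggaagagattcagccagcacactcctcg
KAT2B: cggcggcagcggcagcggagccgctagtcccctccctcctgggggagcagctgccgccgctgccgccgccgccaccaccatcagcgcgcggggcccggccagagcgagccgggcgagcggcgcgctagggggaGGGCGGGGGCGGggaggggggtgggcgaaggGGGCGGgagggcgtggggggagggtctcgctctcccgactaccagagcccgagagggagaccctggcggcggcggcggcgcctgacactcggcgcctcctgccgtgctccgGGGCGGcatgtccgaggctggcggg
SIRT1: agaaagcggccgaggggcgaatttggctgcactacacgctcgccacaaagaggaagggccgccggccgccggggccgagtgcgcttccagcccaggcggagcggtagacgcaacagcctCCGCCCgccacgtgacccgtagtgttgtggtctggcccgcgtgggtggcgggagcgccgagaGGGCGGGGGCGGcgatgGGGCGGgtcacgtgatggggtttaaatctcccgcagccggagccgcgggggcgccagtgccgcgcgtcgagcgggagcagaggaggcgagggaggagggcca
CHD2: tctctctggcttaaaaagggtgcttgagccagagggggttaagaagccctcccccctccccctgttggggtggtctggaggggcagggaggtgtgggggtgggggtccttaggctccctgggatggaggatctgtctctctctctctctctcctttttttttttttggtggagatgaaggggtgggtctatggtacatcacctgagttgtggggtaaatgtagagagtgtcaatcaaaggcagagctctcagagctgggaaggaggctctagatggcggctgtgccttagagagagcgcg

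The windows of SMARCA2, KAT2B, SIRT1 and CHD2 held 2, 4, 4 and 0 GC boxes, at a GC content of 66.7%, 80.3%, 72.7% and 56%. A GC box was found in 70.5% of the 78 members with an entry, beside 70.9% of 8659 tested named genes and 44.6% of all 27305 promoters of the same length. It was in 16 of 24 members lower with no overlap and in 7 of 10 higher with no overlap. By role it was in 14 of 19 activating and 10 of 21 repressive enzymes. The letters TATAAA, on either strand, were in 0 of 78 members and 5.52% of tested named genes, and CCAAT in 32.1% of members and 37.3% of tested named genes. Each motif was counted on its own, so letters of different motifs may overlap, and a match is a description only.

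**Figure D4:**
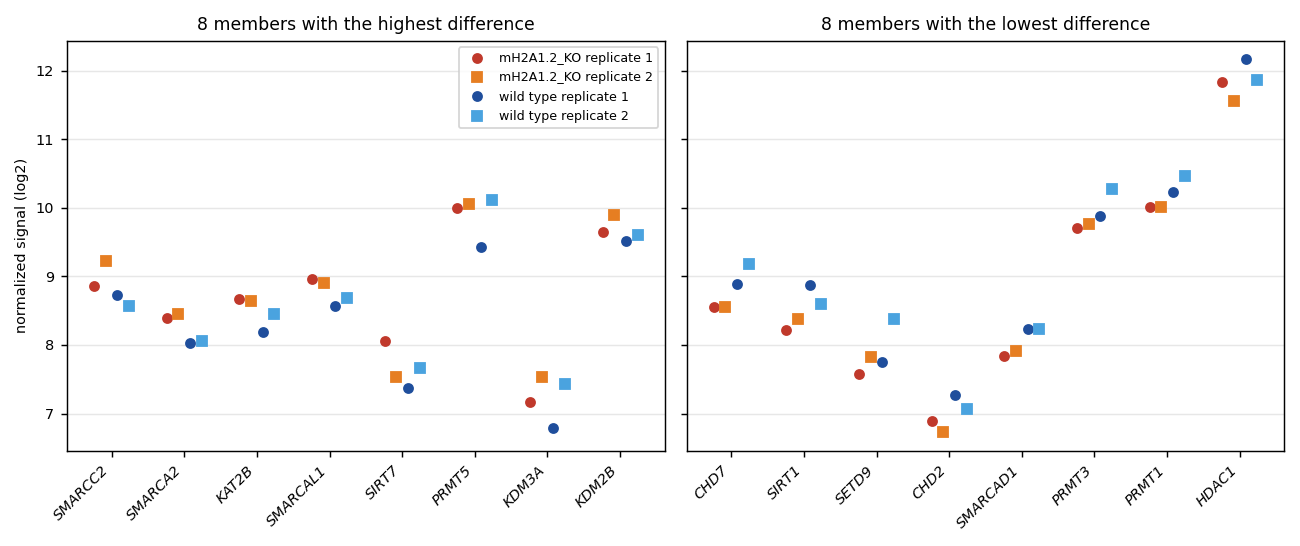
Normalized log2 signal on each array for the 8 members with the highest difference (left) and the 8 with the lowest (right), with mH2A1.2_KO left of wild type within each gene. SMARCA2 and SMARCAL1 show 2 tight groups, while PRMT5 and KDM3A differ more between wild type replicates than between groups.

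Bromodomain readers were lower for 3 of 4. BRD3, a BET protein, measured 8.64 and 8.93 in mH2A1.2_KO and 9.40 and 8.79 in wild type, a difference of -0.31 ± 0.25. It rested on wild type replicate 1, without which it was -0.01. BRD2, the other BET member measured, gave 11.003 and 11.07 in mH2A1.2_KO against 11.16 and 11.20 in wild type, a difference of -0.14 ± 0.15 with no overlap. BRD9, of the non-canonical SWI/SNF complex, differed by -0.17 ± 0.23, and BRD7, of the PBAF form, by 0.15 ± 0.16, where its second probe measured -0.003. DNMT3B, a DNA methyltransferase of new methylation, measured 6.66 and 7.15 in mH2A1.2_KO and 7.13 and 7.17 in wild type, a difference of -0.24 ± 0.21. Without mH2A1.2_KO replicate 1 that difference was 0.001.

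The 14 enzymes with other substrates measured lower for 9 and higher for 5, with a median of -0.10. SETD9, a SET domain protein of unsettled substrate, measured 7.58 and 7.82 in mH2A1.2_KO and 7.75 and 8.38 in wild type, a difference of -0.36 ± 0.24 with overlapping arrays. PRMT3, which methylates a ribosomal protein, gave 9.70 and 9.77 in mH2A1.2_KO against 9.87 and 10.28 in wild type, a difference of -0.34 ± 0.19 (adjusted p = 0.795). Cytoplasmic and non-histone deacetylases (HDAC6, HDAC11 and SIRT2) were all higher, from 0.03 to 0.19. Mitochondrial sirtuins (SIRT4 and SIRT5) measured -0.09 and -0.10.

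Several probes were detected for 20 members. They lay on one side of 0 for 13 and on both sides for 7 (BRD7, CHD6, KMT5B, PRMT2, SIRT5, SMARCA1 and SMARCD3). For PRMT2 they ran from -0.36 to 0.25. The 22 genes under the detection limit included KMT2D, KDM6B, KDM5C, HDAC5, SIRT6, DNMT3A, TET1 and TET2, so nothing can be said of their differences here.

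Differences between replicate numbers were of similar size to those between groups. The median size of the difference over the 86 members was 0.16 between groups and 0.13 between replicate 2 and replicate 1, beside 0.14 and 0.18 over all features. For 39 of 86 members the replicate difference was the larger. It was 0.51 for KDM3A, 0.44 for BRD9, 0.43 for SETD9 and 0.37 for PRMT5. By contrast it was 0.14 for CHD7, 0.04 for SMARCA2 and -0.06 for SIRT1, each smaller than the group difference.

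**Figure D5:**
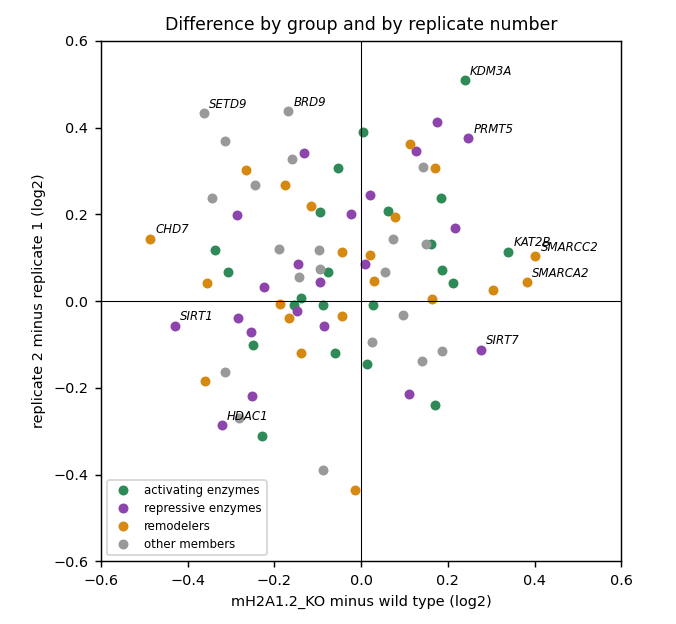
Each point is 1 of 85 members: difference between groups on the x axis (mH2A1.2_KO minus wild type) and between replicate numbers on the y axis (replicate 2 minus replicate 1), both in log2 units. CHD7, SIRT1, SMARCA2 and SMARCC2 lie far from 0 on the x axis and closer to 0 on the y axis, and KDM3A, BRD9 and SETD9 are high on the y axis.

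Partner genes are other chromatin genes outside the symbol rule, complex subunits and enzymes that need not share a complex with a member. They were read from a list of 112, of which 91 were tested. limma called 0 of them, 6 lay under an unadjusted p of 0.05, and 59 measured lower and 32 higher in mH2A1.2_KO, with a median of -0.06. Over all features 52% lay below 0 and 7.73% under that p. Arrays did not overlap for 24 lower and 14 higher (41.8%), beside 35.8% of all features. CBX2, a Polycomb PRC1 subunit that reads H3K27 methylation, measured 6.75 and 6.74 in mH2A1.2_KO and 7.59 and 7.50 in wild type, a difference of -0.80 ± 0.15 (adjusted p = 0.351). Its mH2A1.2_KO signals were detected but lay close to background, so the size of that difference is uncertain. PAXIP1, a subunit of the KMT2C and KMT2D complexes, measured 8.62 and 8.70 in mH2A1.2_KO and 9.33 and 9.47 in wild type, a difference of -0.74 ± 0.16 (adjusted p = 0.382). Both exceeded the difference of any gene of the symbol rule. RCOR2, a CoREST subunit, measured 7.20 and 6.90 in mH2A1.2_KO and 8.14 and 7.26 in wild type, a difference of -0.65 ± 0.30 that was -0.21 without wild type replicate 1.

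At the other end HAT1, which acetylates new histone H4, measured 8.77 and 9.04 in mH2A1.2_KO and 8.23 and 8.58 in wild type, a difference of 0.50 ± 0.20 (adjusted p = 0.631). SAP30, a SIN3 subunit, measured 7.26 and 8.10 in mH2A1.2_KO and 6.94 and 7.48 in wild type, a difference of 0.47 ± 0.33 in which the second replicate was the higher in each group. PCGF3, of PRC1, was detected on both mH2A1.2_KO arrays and not well above background in wild type. With the dimmest detected probe as a floor for wild type, its means differed 1.23-fold, and the difference did not pass the test (adjusted p = 0.742). PCGF3 passed the detection limit through mH2A1.2_KO alone, so its being higher there carries little weight. Of 10 partner subunits of SWI/SNF 9 were lower, 4 of them with no overlap, where 52% of all features lay below 0 and 18.7% were lower with no overlap. The 8 COMPASS subunits had a median of -0.20, 5 of them lower.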

How the data were processed

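Per the labels' protocols, RNA was extracted on columns and turned into biotin-labelled cRNA for bead arrays. GenomeStudio was used, per the submitters' processing notes. The raw deposited table holds the intensity of 47230 probes on a linear scale. Beside each intensity the authors deposited a detection p-value. A second deposited table holds log2 values of 43893 probes, whose normalization is not given in the sources used. Each raw array followed 1 normalized column (a correlation that rounds to 0.998 for each, over 7303 bright probes), which showed that the tables name 2 arrays differently. The normalized table's sample names were used.

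Normalized values were quantile normalized across the 4 arrays, probes were kept at a detection p under 0.01 on 2 or more arrays, and each gene was represented by its brightest kept probe. The model was limma's lmFit with eBayes (version 3.58.1, R 4.3.3) over all 13786 features, two-sided, and p-values were adjusted by Benjamini-Hochberg with a threshold of 0.05. Intervals are 95% intervals of that fit. The fit was tested on simulated data. Precision is limited by the number of arrays.

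The members, enzyme classes and partner list were chosen with earlier results of these data known. Named genes were the 8 highest and 8 lowest members, the 2 most different per class, and 3 highest and 3 lowest partners, which gave 19 members, and 20 more were named after their values were seen. The alternatives were values without quantile normalization, neqc, other detection filters, the mean of probes, leaving out each array, a replicate block and the raw header's grouping. For neqc each raw array took the name of the normalized column it followed, a choice made after the data were seen. Symbols came from the platform annotation and promoters from RefSeq.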

Additional observations from a re-analysis of the deposited data

How the results depend on the processing

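No member passed limma's test under any alternative, and 0 to 13 lay under an unadjusted p of 0.05, the 13 with the replicate block, where 17.4% of features did. The signs of the 46 named genes were kept without quantile normalization, with neqc, with other detection filters and with the mean of probes, where they were measured. Features past the test numbered 2 with no detection filter and 0 to 156 when 1 array was left out (57 without wild type replicate 1 and 156 without wild type replicate 2), and partner genes past it 0 to 1. Leaving out 1 array gave medians from -0.10 to -0.015 for members, -0.068 to 0.043 for activating and -0.14 to -0.033 for repressive enzymes. Single genes that changed sign then ran from -0.41 to 0.074 (BRD9), -0.49 to 0.00074 (DNMT3B), -0.17 to 0.12 (EZH2), -0.16 to 0.53 (KDM4B), -0.18 to 0.0064 (HDAC2), -0.086 to 0.56 (KDM3A), -0.098 to 0.59 (PRMT5) and -0.24 to 0.012 (SMARCC1). Samples share a replicate number but nothing in the labels pairs them, and the deviations of same-numbered arrays from their group means correlated at 0.57 over features. With the number as a replicate block 425 features (3.08%) and 2 partners passed (CBX2, adjusted p = 0.018, and PAXIP1, 0.024) and 0 members, of which CHD7 had the lowest adjusted p, 0.111. Under the raw header's grouping, which sets replicate 2 against replicate 1 of the normalized table, medians were 0.067 for members, 0.067 for activating and 0.038 for repressive enzymes, and MACROH2A1 measured -0.12. It turned BRD2 (0.055), BRD9 (0.44), CHD7 (0.14), DNMT3B (0.27), EZH2 (0.20), HDAC3 (0.086), HDAC4 (0.20), KDM3B (0.067), PRMT1 (0.12), PRMT3 (0.24), SETD9 (0.43), SMARCA4 (0.27), SMARCAD1 (0.041), SMARCC1 (0.22) and PAXIP1 (0.11) above 0, and KDM4A (-0.24), SIRT7 (-0.11) and PCGF3 (-0.024) below it. Between the arrays both tables place alike, an alternative chosen after seeing the data, the median of members was 0.021, and the values that turned were 0.27 (BRD9), 0.022 (DNMT3B), 0.18 (EZH2), -0.069 (KDM4A), 0.071 (SETD9), 0.092 (SMARCA4) and 0.11 (SMARCC1). The cause of the tables' disagreement was not tested, and each result rests on the normalized table's names.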
